A study of Rattus norvegicus with 10 samples.

Results

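The 10 genes described here are the core of the mammalian circadian clock and its nearest output: Arntl (named Bmal1 in the current annotation), Clock, Per1, Per2, Per3, Cry1, Cry2, Dbp, Nr1d1 and Nr1d2. They were chosen by name from the genes known to form the clock, and every probe set whose annotation lists one of them alone was taken, which gave 18 of the 31042 probe sets and 10 of 14217 named genes. Their signals were measured in left ventricle of male Sprague-Dawley rats of 250 to 300 g on Affymetrix Rat Expression Set 230 arrays, 5 of hearts that had received the GATA-4 gene and 5 of hearts that had received LacZ, the bacterial beta-galactosidase gene, all 3 days after transfer. The groups follow the source label of each array, since the titles name GATA-4 on all 10. The design text names 5 samples in each group and the labels name no animal, so the p-values measure the spread between these samples. The labels used here state neither the vector, the injection site and the rats' age nor the hour at which hearts were taken.

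The clock is a loop of transcription that runs in nearly every mammalian cell, heart muscle included. CLOCK and BMAL1 (the product of Arntl) bind E-boxes and switch on the Per, Cry, Nr1d1, Nr1d2 and Dbp genes. The PER and CRY proteins then block CLOCK and BMAL1, while NR1D1 and NR1D2 (REV-ERB alpha and beta) repress Arntl through ROR elements. In peripheral rodent tissues Arntl RNA therefore peaks at about the opposite time of day to Dbp and Nr1d1 RNA, with the Per genes following Dbp. A difference in clock phase between groups would be read from Arntl moving against Dbp, Nr1d1 and the Per genes.

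The 2%-trimmed mean signal was 249 to 329 on 9 arrays and 142 on GATA-4 array 1, which is called the dim array and is left out beside each result it decides. The sample numbers of GATA-4 arrays 4 and 5 do not follow those of the other 8, and no batch is labelled. The check of the transferred gene used the brighter Gata4 probe set. Its log2 signal was 11.44 ± 0.14 on GATA-4 arrays and 10.65 ± 0.13 on LacZ arrays (SD, n = 5 each), with no overlap. The other Gata4 probe set was too dim to be tested, and its groups overlapped, at 4.41 to 6.21 on GATA-4 arrays and 3.19 to 5.63 on LacZ arrays. Cardiomyocyte markers had summed signals of 93101 to 95705 on GATA-4 arrays and 93764 to 96293 on LacZ arrays, and 0 of 9 changed. Even the dimmest of them, Ryr2, had a mean at the 99.1 percentile of all probe sets. Quantile normalization gives such top ranks nearly the same values on every array. These sums therefore cannot show whether cardiomyocyte content was equal. Of 16 macrophage markers 9 rose and 0 fell, where 3.71% of all genes were higher and 2.66% lower. Their summed signal was 29160 to 34785 on GATA-4 arrays and 22949 to 26111 on LacZ arrays, and none was near 0 (the dimmest averaged 6.28 on the log2 scale). The part of these cells in the clock values below was not tested, and in such whole tissue fewer cells of a type and less RNA per cell cannot be told apart.

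No clock gene changed at the threshold. All values are log2 signals after quantile normalization, and tests were run on probe sets with a mean signal above the 40th percentile, which left 14 of the 18 clock probe sets and at least 1 for each gene. Of these 14, 0 passed an adjusted p of 0.05 in limma, where 5.30% of all probe sets did (3.04% higher with GATA-4 and 2.27% lower). An unadjusted limma p under 0.05 was reached by 3 of the 14, all of Nr1d2, where 22.0% of all probe sets reached it. The groups did not overlap in 0 of the 14, against 8.30% of all probe sets. Differences (GATA-4 minus LacZ) were negative for 12 of the 14 with a median of -0.17, and 53.8% of all tested probe sets were negative with a median of -0.025. Without the dim array 3 of the 14 fell, 1 of Dbp and 2 of Nr1d2, where 15.3% of all probe sets changed and 7.44% were lower.

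**Figure D1:**
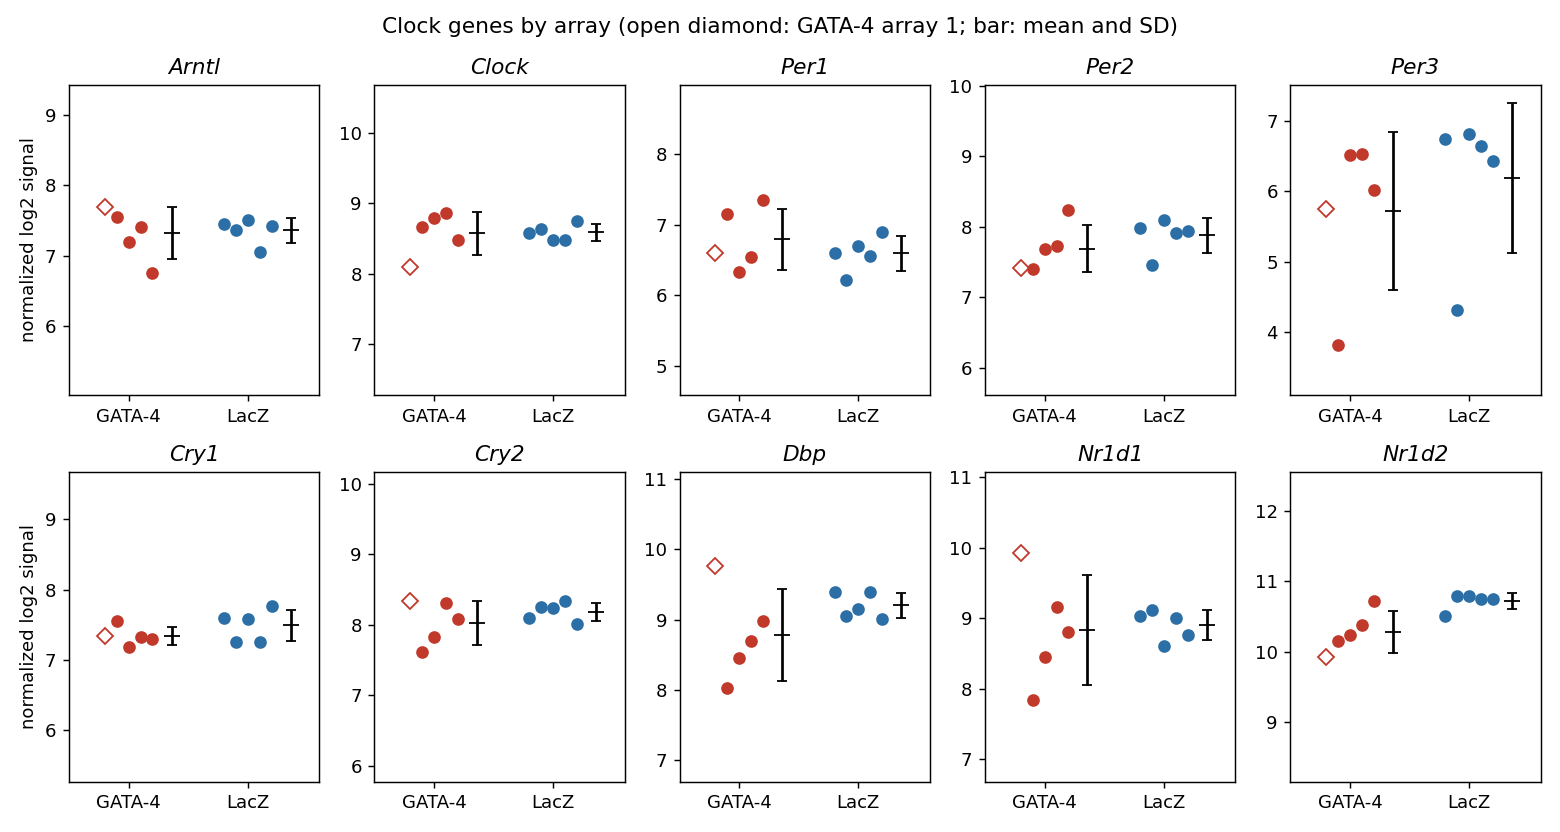
Normalized log2 signal (vertical axis, each panel spanning the same width) of the brightest probe set of each clock gene on 5 GATA-4 and 5 LacZ arrays, 1 point per array, with mean and SD at the right of each group. Dbp covers 8.03 to 9.77 on GATA-4 arrays and 9.01 to 9.40 on LacZ arrays, and the dim array (open diamond) is the highest of all for Dbp and Nr1d1.

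Arntl encodes BMAL1, the partner of CLOCK in the activating arm. Its only probe set read 7.69, 7.55, 7.19, 7.40 and 6.75 on GATA-4 arrays 1 to 5, against 7.45, 7.36, 7.50, 7.05 and 7.42 on LacZ arrays 1 to 5. The groups overlapped, with the highest and the lowest array both in the GATA-4 group. The means were 7.32 ± 0.37 and 7.36 ± 0.18 in GATA-4 and LacZ arrays (SD, n = 5), a difference of -0.039 with a 95% interval of -0.41 to 0.33 and a limma adjusted p of 0.918. The gene lies on chromosome 1 at 176766222 to 176864741 in GRCr8. Its RefSeq promoter window (chr1:176766078-176766377, plus strand, 250 bases before to 50 after a transcript start) is shown because the REV-ERB proteins act on Arntl through such an element. Capitals mark a ROR element core, TAGGTCA, which begins 16 bases before the start that the window was built on. For Arntl, Per2 and Nr1d1 that start lies inside the listed span of the gene, downstream of its outermost start, and distances are counted from it.
Arntl: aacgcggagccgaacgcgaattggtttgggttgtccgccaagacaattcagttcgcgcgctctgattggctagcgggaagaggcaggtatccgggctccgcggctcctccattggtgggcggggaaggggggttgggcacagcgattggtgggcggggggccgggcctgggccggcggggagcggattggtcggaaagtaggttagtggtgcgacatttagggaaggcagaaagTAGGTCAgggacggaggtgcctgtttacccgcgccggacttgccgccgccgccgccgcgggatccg
That core, on either strand, was present in 2.63% of 33469 promoter windows, and in 1 of the 11 windows listed for 9 of the clock genes. A match of letters is a description and does not show that the site is used.

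Clock, on chromosome 14, encodes the other activator and a histone acetyltransferase. The brightest of its 4 probe sets read 8.10, 8.66, 8.79, 8.86 and 8.48 on GATA-4 arrays, against 8.58, 8.64, 8.48, 8.48 and 8.75 on LacZ arrays. The groups overlapped, and the dim array was the lowest of the 10. The difference was -0.0087 (SE 0.14, 95% interval -0.31 to 0.29) with a limma adjusted p of 0.979, and 0.11 without the dim array. A second Clock probe set, 1389456_at, averaged 7.96 ± 0.12 on GATA-4 arrays and 8.14 ± 0.11 on LacZ arrays (SD, n = 5), a difference of -0.18 with a limma adjusted p of 0.328. The third, 1380098_at, fell into separate ranges inside both groups. GATA-4 array 1 read 3.48 and GATA-4 arrays 2 to 5 read 6.02 to 6.56, against 3.35 and 3.04 on LacZ arrays 1 and 4 and 6.05 to 6.53 on LacZ arrays 2, 3 and 5. The fourth was too dim to be tested, at 0.70 to 4.64 on GATA-4 arrays and 2.52 to 4.60 on LacZ arrays.

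Per1, Per2 and Per3 encode the PERIOD proteins, which carry the inhibition back to CLOCK and BMAL1. Per1 (chromosome 10), which also responds quickly to glucocorticoid and light signals, read 6.60, 7.16, 6.33, 6.54 and 7.35 on GATA-4 arrays, against 6.60, 6.22, 6.70, 6.56 and 6.90 on LacZ arrays. GATA-4 arrays 2 and 5 lay above all LacZ arrays and the other 3 within them. The difference was 0.20 (SE 0.20, 95% interval -0.24 to 0.64; limma adjusted p = 0.614).

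Per2 (chromosome 9) read 7.42, 7.40, 7.68, 7.73 and 8.23 on GATA-4 arrays, against 7.98, 7.45, 8.10, 7.91 and 7.94 on LacZ arrays by its brighter probe set. GATA-4 array 5 was the highest of the 10 and arrays 1 and 2 the lowest. The difference was -0.19 (SE 0.17, 95% interval -0.55 to 0.18; limma adjusted p = 0.563). The second Per2 probe set was too dim to be tested, at 3.21 to 5.07 on GATA-4 arrays and 3.53 to 5.58 on LacZ arrays. The promoter window of Per2 (chr9:99496944-99497243, GRCr8, minus strand) is shown because it holds a D-box, TTATGTAA, the kind of element that DBP is known to bind. The letters say nothing of whether it is used in these hearts. The deviations of Per2 and Dbp from their group means had r = 0.11 over 10 arrays and 0.75 over the 9 without the dim array. Capitals mark it, from 192 bases before the start.
Per2: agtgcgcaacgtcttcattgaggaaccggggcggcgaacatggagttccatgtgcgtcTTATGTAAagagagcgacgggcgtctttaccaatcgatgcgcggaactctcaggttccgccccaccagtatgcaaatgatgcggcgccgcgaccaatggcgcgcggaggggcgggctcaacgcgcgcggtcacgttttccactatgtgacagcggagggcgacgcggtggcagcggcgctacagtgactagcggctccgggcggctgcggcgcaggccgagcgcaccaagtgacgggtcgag
That D-box occurred, on either strand, in 0.893% of the promoter windows and in 1 of the 11 clock gene windows.

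Per3 (chromosome 5) had 1 tested probe set, and its values lay in separate ranges in both groups. It read 5.75, 3.81, 6.51, 6.52 and 6.02 on GATA-4 arrays, against 6.75, 4.31, 6.80, 6.64 and 6.43 on LacZ arrays. GATA-4 array 2 and LacZ array 2 stood well below the other arrays of their groups, and replicate numbers do not pair the groups. The difference of -0.46 had a 95% interval of -1.66 to 0.73 (limma adjusted p = 0.669). Without GATA-4 array 2 it was 0.013 and without LacZ array 2 it was -0.93, so that single arrays set its size. The other Per3 probe set was too dim to be tested, at 2.56 to 4.85 on GATA-4 arrays and 1.42 to 4.33 on LacZ arrays.

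Cry1 (chromosome 7) and Cry2 (chromosome 3) encode the cryptochromes, the repressors that act with the PER proteins. Cry1 read 7.35, 7.55, 7.18, 7.33 and 7.30 on GATA-4 arrays, against 7.60, 7.26, 7.58, 7.26 and 7.76 on LacZ arrays. Cry1 was the one gene of the 10 whose brightest probe set had a narrower range with GATA-4 (0.37, against 0.50 with LacZ). The difference was -0.15 (SE 0.13, 95% interval -0.43 to 0.13; limma adjusted p = 0.524). Cry2 read 8.33, 7.61, 7.82, 8.31 and 8.07 on GATA-4 arrays, against 8.10, 8.25, 8.23, 8.33 and 8.02 on LacZ arrays by its brighter probe set. GATA-4 arrays 2 and 3 lay below all LacZ arrays, and the difference was -0.16 (SE 0.15, 95% interval -0.47 to 0.16; limma adjusted p = 0.566). The other Cry2 probe set was too dim to be tested, at 2.39 to 3.57 on GATA-4 arrays and 1.59 to 3.05 on LacZ arrays.

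Dbp (chromosome 1, 105312256 to 105317205) encodes a PAR bZIP activator whose RNA is among the strongest rhythmic outputs of the clock in rodent tissues. Dbp read 9.77, 8.03, 8.45, 8.69 and 8.97 on GATA-4 arrays, against 9.39, 9.06, 9.15, 9.40 and 9.01 on LacZ arrays. GATA-4 arrays 2 to 5 lay below all 5 LacZ arrays, and the dim array lay above all of them. Over all arrays Dbp averaged 8.78 ± 0.65 on GATA-4 arrays, against 9.20 ± 0.18 on LacZ arrays (SD, n = 5), a difference of -0.42 (SE 0.25, 95% interval -0.95 to 0.12) with a limma adjusted p of 0.352. Without the dim array Dbp fell, with 8.64 ± 0.40 on 4 GATA-4 arrays and 9.30 ± 0.18 on 5 LacZ arrays, a difference of -0.66 (SE 0.16) and a limma adjusted p of 0.0172. The groups then did not overlap, as in 16.2% of all probe sets.

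Nr1d1 encodes REV-ERB alpha and lies on chromosome 10 at 84224599 to 84231812, where it overlaps Thra, the thyroid hormone receptor alpha gene. Whether its single probe set reads Thra transcripts was not tested. Nr1d1 read 9.92, 7.83, 8.44, 9.16 and 8.80 on GATA-4 arrays, against 9.03, 9.12, 8.60, 9.01 and 8.76 on LacZ arrays. The arrays spread to both sides of the LacZ arrays, with 2 above, 2 below and 1 within. The difference was -0.072 (SE 0.30, 95% interval -0.71 to 0.57; limma adjusted p = 0.910), and -0.35 without the dim array with a limma adjusted p of 0.302. The downstream of 2 RefSeq promoter windows of Nr1d1 (chr10:84229405-84229704, GRCr8, minus strand) is shown because it is the one window of the 11 with an E-box, CACGTG, the element of CLOCK and BMAL1. It begins 191 bases before the start and is in capitals.
Nr1d1: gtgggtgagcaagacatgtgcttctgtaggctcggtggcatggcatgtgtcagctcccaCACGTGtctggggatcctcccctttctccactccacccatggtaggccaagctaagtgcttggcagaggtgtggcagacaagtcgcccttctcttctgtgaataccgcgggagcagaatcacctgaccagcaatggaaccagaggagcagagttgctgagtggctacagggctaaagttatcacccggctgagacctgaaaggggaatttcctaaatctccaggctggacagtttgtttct
An E-box of these letters was present in 6.42% of all promoter windows. None of the 11 windows held a cAMP response element spelled TGACGTCA, found in 1.83% of all windows. The only Per1 window (chr10:54304126-54304425) lay well inside that gene, whose listed span begins at 54299002. The outermost start of Per1 was therefore not searched for any of these motifs, and Cry1 had no window. The GATA motif AGATAA, searched for the transferred factor, was in 1 of the 11 clock gene windows and in 11.6% of all windows. That was the more downstream Clock window (chr14:32300295-32300594), well inside the gene. The Clock window at chr14:32262500-32262799, at the outermost start of the gene, held none.

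Nr1d2 (chromosome 15, 9955034 to 9981329) encodes REV-ERB beta, and it came nearest to the threshold. Its brightest probe set read 9.92, 10.15, 10.24, 10.37 and 10.72 on GATA-4 arrays, against 10.51, 10.78, 10.78, 10.74 and 10.75 on LacZ arrays. Arrays 1 to 4 of the GATA-4 group lay below all LacZ arrays and array 5 within them. The difference was -0.43 (SE 0.13, 95% interval -0.71 to -0.16) with a limma adjusted p of 0.0676. A second probe set, 1370541_at, read 8.79, 8.47, 8.60, 8.90 and 9.09 on GATA-4 arrays, against 9.25, 9.22, 9.27, 9.01 and 9.20 on LacZ arrays. It too had 4 GATA-4 arrays below all LacZ arrays, with a difference of -0.42 (SE 0.12) and a limma adjusted p of 0.0658. The third and dimmest, 1370540_at, had a difference of -0.67 (SE 0.31; limma adjusted p = 0.222). The 3 probe sets measure 1 gene in the same RNA and are not separate evidence.

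Nr1d2 stood so close to the threshold that its call turned with the processing. The brighter pair of probe sets fell when the arrays were centred on their medians, with limma adjusted p-values of 0.0498 and 0.0425. Both also fell without the dim array (0.0467 and 0.0336) and without GATA-4 array 5 (0.0263 and 0.0461). Over the 10 fits that each lacked an array the limma adjusted p ran from 0.0263 to 0.160 for the brightest probe set and from 0.0336 to 0.161 for 1370541_at. With the signals as deposited neither passed.

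**Figure D2:**
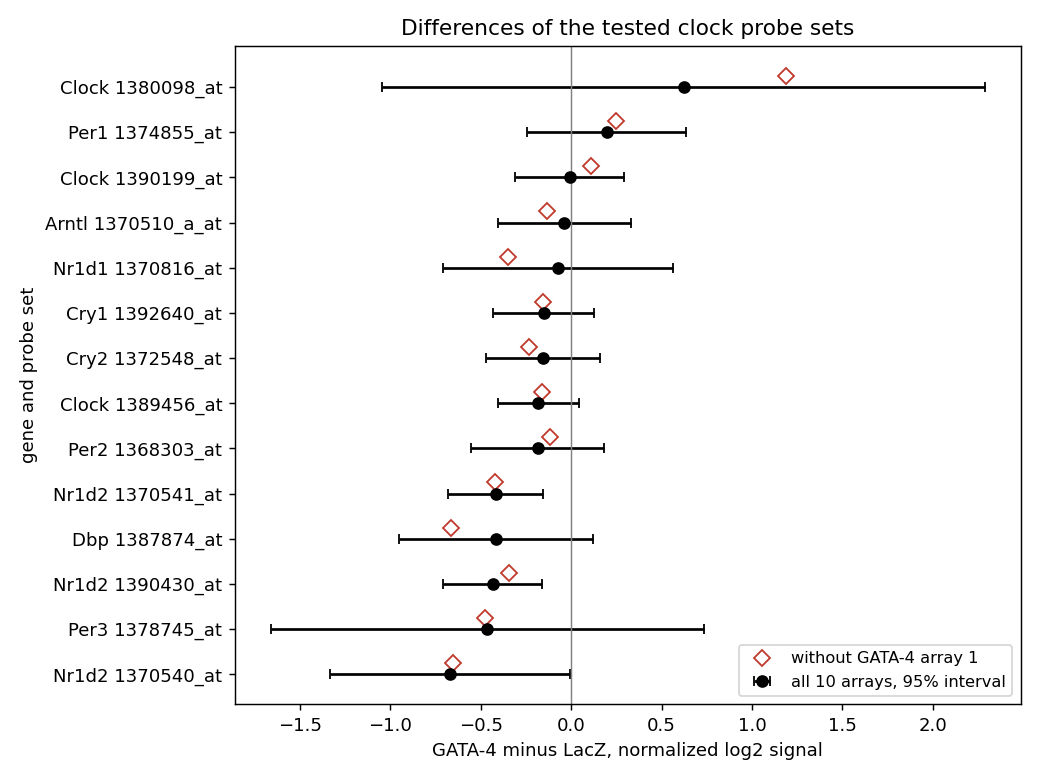
GATA-4 minus LacZ difference in normalized log2 signal (horizontal axis) for each of the 14 tested clock probe sets, with its 95% interval from limma over all 10 arrays (black) and the value without the dim array (open diamond). The intervals of the 3 Nr1d2 probe sets lie below 0, and Dbp moves to -0.66 from -0.42 once the dim array is left out.

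Values spread more widely among GATA-4 arrays across the whole array, with a wider range than among LacZ arrays for 74.3% of all tested probe sets and a median range of 0.665 with GATA-4, against 0.418 with LacZ. Among the clock genes the brightest probe set had the wider range on GATA-4 arrays for 9 of 10, beside that 74.3% of all tested probe sets. Whether such a share is particular to them was not tested. The range of Dbp was 1.74 with GATA-4 and 0.38 with LacZ, and that of Nr1d1 was 2.09 with GATA-4 and 0.52 with LacZ. Of all tested probe sets 3.95% and 1.82% had a GATA-4 range above those of Dbp and Nr1d1. Without the dim array 9 of the 10 genes still had the wider range with GATA-4. The share of all probe sets was not taken in that setting. Their median range was 0.423 on GATA-4 arrays 2 to 5, beside 0.418 on the 5 LacZ arrays. A range cannot grow when an array is dropped, and no other array was left out for this median. How much of the array-wide excess came from the dim array was therefore not tested. The Dbp and Nr1d1 ranges over GATA-4 arrays were 0.95 and 1.33 without the dim array. In the signals as deposited they were 0.69 and 0.94 with GATA-4, against 0.47 and 0.86 with LacZ, so the size of this spread depended on the normalization.

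As a guide to clock phase, each array's log2 signal of a gene was taken minus that of Arntl, a contrast that cancels a shift common to the whole array. It also moves when only 1 gene of the pair changes, so it cannot tell a phase difference from a change in that gene alone. The Dbp contrast differed by -0.38 between the groups, where Dbp itself differed by -0.42 and Arntl by -0.039. Its level has no meaning of its own, since it sets 1 probe set against another, and only differences between arrays were compared. As a score over the clock genes it was given no test. Dbp minus Arntl was 2.07, 0.48, 1.26, 1.29 and 2.22 on GATA-4 arrays, against 1.93, 1.70, 1.65, 2.35 and 1.59 on LacZ arrays. GATA-4 arrays 2, 3 and 4 were below all LacZ arrays and the other 2 within them. The GATA-4 mean was 1.47 ± 0.71, against a LacZ mean of 1.84 ± 0.31 (SD, n = 5).

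Nr1d1 minus Arntl averaged 1.51 ± 0.78 on GATA-4 arrays and 1.55 ± 0.34 on LacZ arrays, and Nr1d2 minus Arntl averaged 2.96 ± 0.65 on GATA-4 arrays, against 3.36 ± 0.23 on LacZ arrays (SD, n = 5). For Nr1d2 no GATA-4 array lay within the LacZ arrays, with 4 below them and array 5 above. For the Per genes the differences in this contrast were 0.24 for Per1, -0.15 for Per2 and -0.43 for Per3. Without GATA-4 arrays 4 and 5 the differences were -0.57 for Dbp, -0.29 for Nr1d1 and -0.74 for Nr1d2. For Per1, Per2 and Per3 they were -0.025, -0.50 and -0.95. All 6 were negative, but each subtracts the same Arntl signal, so their signs are not independent. Arntl itself differed by 0.12 in that setting and Per1 itself by 0.096. Over all arrays the groups overlapped in all 6 contrasts, and their means differed by less than the SD within the GATA-4 group in each. Against the smaller LacZ SD, the Dbp difference of -0.38 (SD 0.31) and the Nr1d2 difference of -0.40 (SD 0.23) were larger in size. GATA-4 array 5, with the lowest Arntl signal of the 10, had the highest Nr1d2, Per1 and Per2 contrasts, while GATA-4 array 2 had the lowest Dbp, Nr1d1 and Per3 contrasts.

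**Figure D3:**
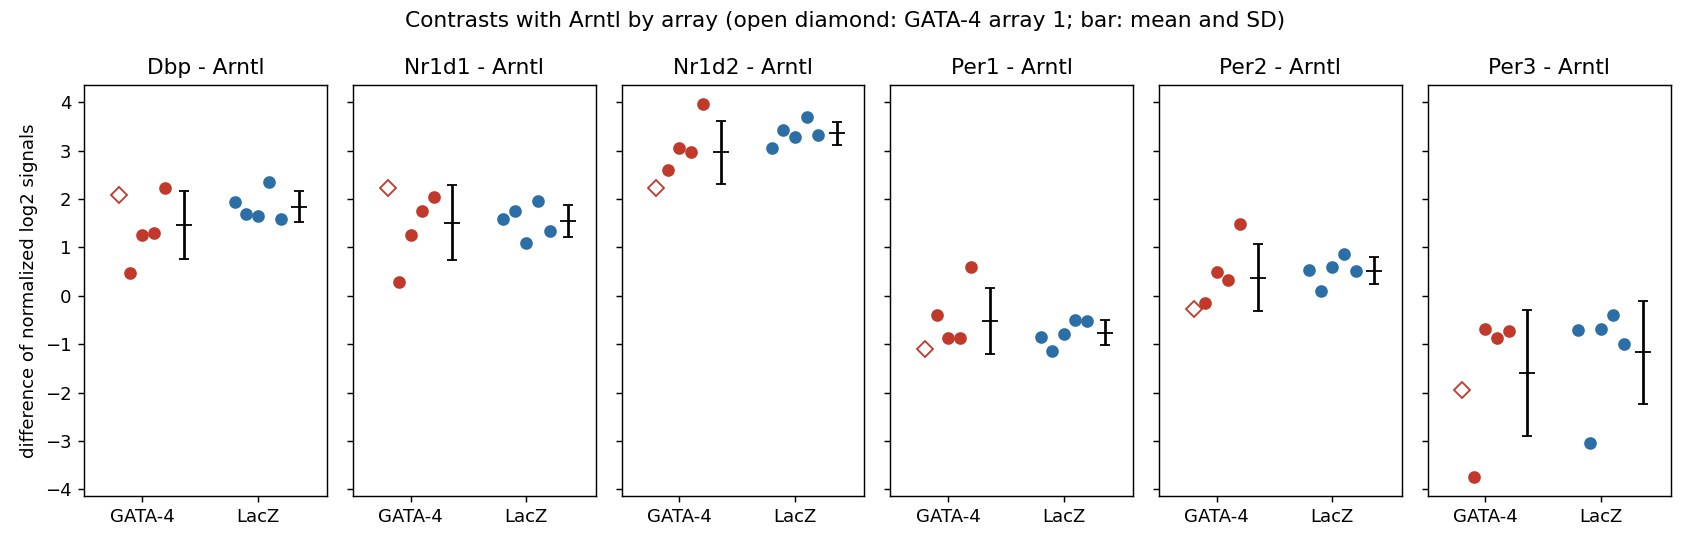
Log2 signal of each gene minus that of Arntl (vertical axis) on 5 GATA-4 and 5 LacZ arrays, 1 point per array, with mean and SD beside each group and the dim array as an open diamond. GATA-4 arrays cover 0.48 to 2.22 for Dbp minus Arntl, and LacZ arrays 1.59 to 2.35.

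Across the 10 arrays Arntl was set against each of the other 9 genes. None of the 9 relations passed, with a lowest Benjamini-Hochberg adjusted permutation p of 0.517 for Pearson's r and 0.441 for Spearman's rho. With Dbp r was 0.077 (permutation p = 0.829) and rho 0.19 (p = 0.608). With Nr1d2 r was -0.49 (permutation p = 0.151) and rho -0.35 (p = 0.324). With Per2 r was -0.58 (permutation p = 0.0783) and rho -0.39 (p = 0.264). Without GATA-4 array 5 and LacZ array 4, the arrays farthest from the Arntl median, r was 0.44 for Dbp, -0.36 for Nr1d2 and -0.21 for Per2 over 8 arrays.

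As a description of the arrays inside their groups, each gene's deviations from its group means were set against those of Arntl. They gave r = -0.80 for Nr1d2, -0.64 for Per2, -0.26 for Per1 and -0.25 for Per3 over 10 arrays that share 1 normalization. For Dbp r was 0.049 and for Nr1d1 0.15. The Dbp and Nr1d1 values turned on the dim array, where Arntl, Dbp and Nr1d1 were all at their highest. Over the other 9 arrays r was -0.74 for Dbp, -0.72 for Nr1d2, -0.57 for Per2 and -0.42 for Nr1d1. It was -0.30 for Per3 and -0.18 for Per1 there. Dbp and Nr1d1 deviated together, with r = 0.90 over 10 arrays and 0.76 over 9.

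**Figure D4:**
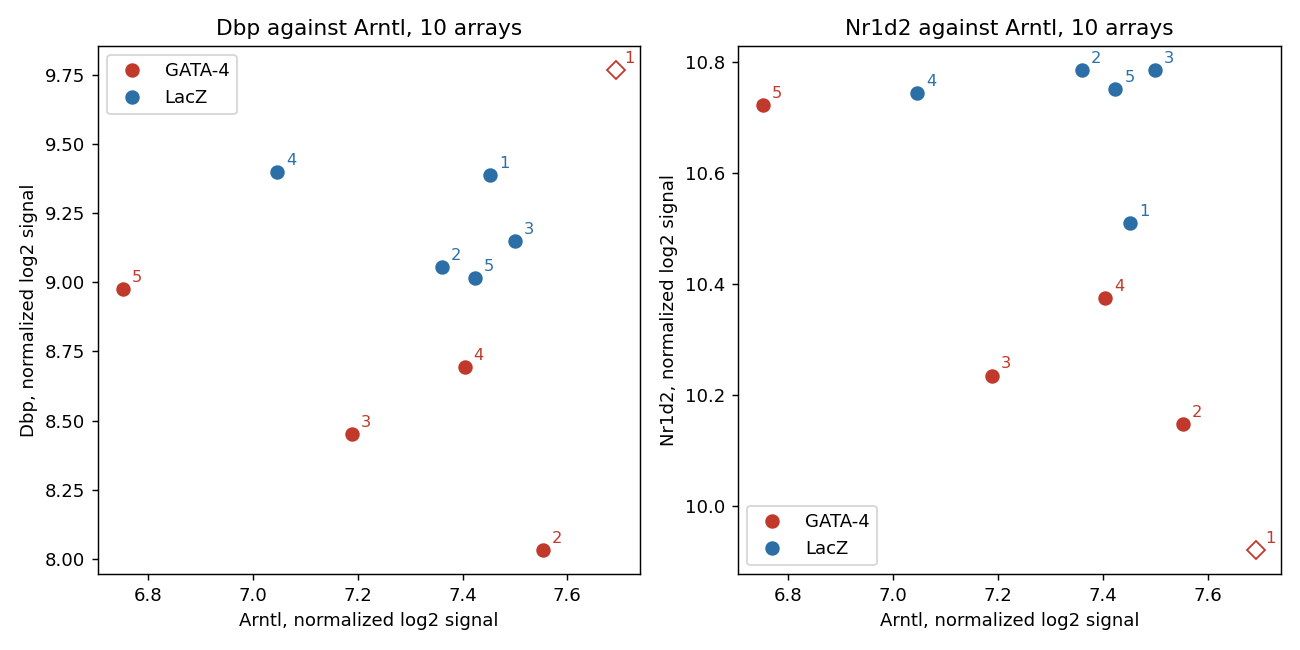
Dbp (left) and Nr1d2 (right) against Arntl, in normalized log2 signal, with 1 numbered point per array and the dim array as an open diamond. GATA-4 array 5 has the lowest Arntl signal (6.75) with a high Nr1d2 signal (10.72), and the dim array pairs the highest Arntl (7.69) with the highest Dbp (9.77).

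The genes whose deviations were most like those of Dbp and Arntl were looked up among 10687 others, over 10 arrays. For Dbp the highest r were those of Taok2 (0.99), Inpp5j (0.97), Mrpl10 (0.97), Strn4 (0.96) and Edc4 (0.96), and the lowest those of Apobec1, Trpm7, Nkapd1, Ubl3 and Chuk (-0.97 to -0.96). For Arntl the highest were Ints6l (0.91), Tspan15, Chic2, Ncstn and Telo2 (0.89 each), and the lowest Kcnt1, Tmem229a, Idh3b, Plekha5 and Crabp2 (-0.88 to -0.86). Extremes of this size are taken from many genes over few arrays.

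Other parts of the clock machinery gave no changed gene. Of 15 listed genes with a probe set 13 were tested, 0 rose and 0 fell, where 6.37% of 10688 genes changed. The median difference was -0.12, against -0.017 for all genes. The smallest p was that of Timeless, a replication fork protein named for its fly relative, at 6.15 ± 0.13 on GATA-4 arrays and 5.62 ± 0.12 on LacZ arrays (SD, n = 5), a difference of 0.53 with a limma adjusted p of 0.0524. The groups did not overlap for Timeless, and it rose without the dim array. Btrc, a ubiquitin ligase subunit that marks PER proteins for destruction, differed by 0.38, and Csnk1e, a kinase of PER proteins, by -0.39, with limma adjusted p-values of 0.109 and 0.157. The other 2 Btrc probe sets were positive too, while those of Csnk1e were 0.075 and 0.16, opposite in sign to the brightest. Npas2, a relative of Clock that can replace it, averaged 7.27 ± 0.23 on GATA-4 arrays and 7.67 ± 0.26 on LacZ arrays (SD, n = 5), a difference of -0.40 with a limma adjusted p of 0.142.

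Among 18 genes known to follow the clock in rodent heart 1 rose and 1 fell, where 3.71% of all genes were higher and 2.66% lower. The median difference was 0.028, against -0.017 for all genes. Klf15, a Kruppel-like factor that links the clock to cardiac metabolism and repolarization, read 10.40, 10.44, 9.92, 10.02 and 10.38 on GATA-4 arrays, against 10.67, 10.59, 10.79, 10.82 and 10.68 on LacZ arrays. All GATA-4 arrays were below all LacZ arrays, and the fall of 0.48 on the log2 scale had a limma adjusted p of 0.0278. A second tested Klf15 probe set differed by -0.35 and did not pass, and an untested dim one by 0.44. Tspan4, a tetraspanin, rose by 0.42 with a limma adjusted p of 0.0452, its groups overlapping at 8.67 to 9.00 with GATA-4 and 8.25 to 8.68 with LacZ. With single arrays left out, Klf15 passed 4 times in 10 and Tspan4 2 times in 10. The RNA-binding protein gene Cirbp (-0.31) and the transferrin receptor gene Tfrc (-0.21) had limma adjusted p-values of 0.169 and 0.294, and another tested Cirbp probe set differed by 0.47.

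Glucocorticoids can set peripheral clocks, so genes that respond to them were read as well. Of 13 tested genes 2 rose and 1 fell, where 3.71% of all genes were higher and 2.66% lower, and the median difference was 0.080, against -0.017 for all genes. Mt2A, a metallothionein, read 10.28, 11.04, 10.73, 10.26 and 10.86 on GATA-4 arrays, against 9.88, 9.97, 9.57, 9.65 and 10.07 on LacZ arrays, a rise of 0.81 (limma adjusted p = 0.0167) with no overlap. Cdkn1a, a cell cycle inhibitor, rose by 0.54 with a limma adjusted p of 0.0315, and Sesn1, a stress protein, fell by 0.53 with one of 0.0297. The other tested probe set of Cdkn1a differed by 1.12 and passed (limma adjusted p = 0.0181), and that of Sesn1 differed by -0.22 and did not (limma adjusted p = 0.576). With single arrays left out, Mt2A passed 9 times in 10, Sesn1 5 times and Cdkn1a 2 times. Sgk1, a kinase, had a difference of 0.40 (limma adjusted p = 0.213) and rose without the dim array. Mt2A is also known to respond to metals, and Cdkn1a and Sesn1 to DNA damage through p53.

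Whether the groups were at one clock phase was not settled by these values. Over all arrays no clock gene changed, the groups overlapped in every clock probe set and every contrast with Arntl, and Arntl itself differed by -0.039. The 95% intervals were wide, however, and for Dbp still held a difference of -0.95. Without the dim array Dbp and Nr1d2 fell while Arntl, at -0.13, did not pass. Whether the hour of sampling moved with the groups was not tested, as no hour is given.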

How the data were processed

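Signals of 31042 probe sets and 57 array controls were taken from a deposited table of 10 arrays. The authors' values are linear probe set intensities from GCOS (the array maker's scanner software), which the submitters' processing notes name. The sources used here state no version or scaling for it.

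Intensities were taken to log2, quantile normalized over probe sets that are not controls and floored at a log2 of 0. Probe sets with a mean above the 40th percentile (18625) were fitted with limma 3.58.1 in R 4.3.3 (intensity trend, no covariates), and two-sided p-values were adjusted by Benjamini-Hochberg over all of them at a threshold of 0.05. The words rose, fell and changed refer to that threshold. Correlations had two-sided permutation p-values (100000 resamples), adjusted over 9 relations.

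Symbols came from GEO's platform annotation, updated by gene ID to RefSeq GRCr8 (20758 of 20826 single-gene probe sets matched), and promoter sequences from RefSeq GRCr8. A gene outside the clock set is given by its brightest probe set. The genes and lists were chosen with earlier results of these data known. From each list of other clock, clock-driven and glucocorticoid-responsive genes the text names the changed members and, where fewer than 4 changed, those of smallest p up to 4. Fibroblast (0 of 7 changed) and endothelial markers (0 of 5) were also read. For Arntl and Dbp the 5 most and 5 least alike genes are named. Kcnip2 is named outside this rule, after its values were seen.

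The alternatives were no normalization, median centring, 16 added to every signal, a floor at the 20th percentile, no filter, a filter at the 60th percentile, limma without trend, robust limma, array weights (statmod 1.5.0), and leaving out arrays. Alternatives for the ranges were added after seeing the data. In simulated data on 18625 probe sets the fit recovered 2% of the probe sets with a change of 1.25-fold, 20% of those with 1.5-fold, 68% of those with 2-fold and 92% of those with 3-fold. The simulation gave 94 calls, beside 988 in the data, so its Benjamini-Hochberg cutoff was stricter. Its noise was independent and normal with the same spread on every array. Its recovered shares therefore need not hold for these arrays. The number of arrays limits the precision.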

Additional observations from a re-analysis of the deposited data

Results flagged for a closer look

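Of 58 sets of 5 values examined, 10 had an array far from the other 4, measured by its gap to the nearest array over the range of the group, where chance gives about 1 in 20. Clock probe set 1380098_at read 3.48 on 1 GATA-4 array, with the next at 6.02, and Clock probe set 1369168_a_at read 2.52 on 1 LacZ array, with the next at 4.02. Per3 probe set 1378745_at read 3.81 on GATA-4 array 2, with the next GATA-4 array at 5.75, and 4.31 on LacZ array 2, with the next LacZ array at 6.43. The same LacZ array gave -3.05 for Per3 minus Arntl. The dim Per3 probe set 1388239_at reached 4.85 on 1 GATA-4 array and the dim Per2 probe set 1378560_at 5.58 on 1 LacZ array. Nr1d2 stood apart on 1 LacZ array for each of its brighter probe sets, at 9.01 for 1370541_at and 10.51 for 1390430_at, and on different arrays. Cdkn1a had 1 low LacZ array at 10.32. The causes were not tested.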

How the results depend on the processing

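No paired analysis was possible because the labels give no numbers shared between the groups. The count of changed probe sets, 988 in all, was 9 as deposited, 619 with no filter and 539 without the trend. It was 723 under median centring, 1092 with the filter at the 60th percentile and 2890 with array weights. Without GATA-4 arrays 4 and 5 together it was 201, and with 1 array left out 174 to 2849. The 988 split into 566 higher and 422 lower, against 322 higher and 401 lower under median centring and 9 higher and 0 lower as deposited. Of the clock probe sets 2 changed under median centring, 1 with the filter at the 60th percentile, 1 without GATA-4 arrays 4 and 5 together, and 0 to 3 with 1 array left out, each lower with GATA-4. Over the 275 values of tested clock probe sets under alternatives, 256 kept their sign and side of the threshold, 9 passed it and 10 changed sign. Clock probe set 1390199_at was 0.035 with array weights and -0.080 to 0.11 with 1 array left out, and Arntl was -0.25 with array weights (limma adjusted p = 0.305), 0.12 without GATA-4 arrays 4 and 5 and -0.13 to 0.10 with 1 left out. With 1 array left out Nr1d1 ran from -0.35 to 0.18 and Per3 from -0.93 to 0.013, and Dbp, at -0.66 to -0.23, passed only without the dim array. The limma adjusted p of Dbp ran from 0.0172 to 0.580 in those fits. The contrasts with Arntl ran, with 1 left out, from -0.57 to -0.13 (Dbp), -0.21 to 0.27 (Nr1d1), -0.65 to -0.21 (Nr1d2), -0.046 to 0.38 (Per1), -0.42 to 0.014 (Per2) and -0.89 to 0.11 (Per3). Without GATA-4 arrays 4 and 5 together they were -0.57, -0.29, -0.74, -0.025, -0.50 and -0.95 in that order of genes. The sign of the Per1 contrast turned there, while that of Per1 itself did not. The relation of Per1 with Arntl was 0.21 by Spearman and 0.53 without the 2 farthest arrays, and that of Cry2 was 0.24 without them. That of Clock moved most, to -0.77 without them (adjusted permutation p = 0.300) from -0.14. Of other clock genes 1 rose (Timeless) without the trend and with array weights, and 0 to 1 rose and 0 fell with 1 left out. Of clock-driven genes 0 rose and 0 fell as deposited, without the trend and without GATA-4 arrays 4 and 5. None of them rose (0) under median centring or with no filter, 2 fell with array weights (Klf15 and Kcnip2), and 0 to 1 rose and 0 to 2 fell with 1 left out. Of glucocorticoid-responsive genes 0 rose and 0 fell as deposited. There 1 rose under median centring, with no filter, without the trend and without GATA-4 arrays 4 and 5, 0 fell in the last 2 of these, and 0 to 3 rose and 0 to 1 fell with 1 left out. The causes were not tested.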
